A study of Mus musculus with 29 samples.

Results

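The genes described here encode the proteins of the cytosolic ribosome, measured as mRNA in 2 regions of the mouse brain. A gene was taken as a member when a probe set of the array carried its symbol alone and the symbol was Rpl or Rps with a number and at most one of the letters a, x, l or y, or was Rplp0, Rplp1, Rplp2 or Rpsa. Where a gene had several such probe sets, the one whose mean across the 29 arrays was highest stood for it. The rule found 45 genes among the 12393 genes that had a probe set of their own, 24 of the large subunit and 21 of the small. They lie on 17 chromosomes. Another 27 ribosomal protein symbols, among them Rplp1, Rpl3 and Rpl5, occur only on probe sets that carry other symbols too and are no members.

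The arrays hold total RNA of the prefrontal cortex (PFC, 18 arrays) and of the caudate-putamen (CPu, 11 arrays), a part of the striatum. The mice were FVB/N, the parent strain, or 1 of 2 transgenic lines on the FVB/N background that also carry a human acetylcholinesterase: AChE-S in TgS mice and AChE-R in TgR mice. Mice of the MPTP arm received MPTP-HCl, from which the brain forms a toxin that enters dopamine neurons, in 4 doses of 20 mg/kg given 2 h apart, 80 mg/kg in all, and tissue was taken 4 days later. Per the labels, 6 mice of each strain received MPTP and 6 received saline, 36 in all. The arrays of the other arm are labelled naive, and the sources used here do not give whether these are the saline mice, the number of mice behind an array, their sex or the promoters that drive the transgenes. Naive PFC has 4 arrays per strain, MPTP CPu of TgR mice has 1, and every other group has 2. P-values therefore measure the spread between arrays, which may be technical. The dissected regions are mixtures, so fewer cells of a type and less RNA per cell cannot be told apart.

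A cytosolic ribosome reads mRNA on its small subunit and joins amino acids on its large subunit. Each subunit is a core of ribosomal RNA with a set of proteins that are made in near equal amounts, and most of these proteins have a single copy in each ribosome. Many of their mRNAs begin with a run of pyrimidines at the 5′ end, called a TOP tract, through which the kinase mTOR controls their translation. Nerve cells use ribosomes in the cell body and also in dendrites, where some proteins are made near synapses.

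The naive PFC arrays fall into 2 sets. The source label of replicates 3 and 4 of all 3 strains spells the region in another way than that of naive replicates 1 and 2 and of the MPTP PFC arrays. The sets differed widely, with 53.7% of the 22626 tested probe sets called between them at an adjusted p under 0.05 (limma, Benjamini-Hochberg). Replicates 3 and 4 served as the naive PFC below, and values for replicates 1 and 2 are given beside the results that they change. The spike-in control bioB, the weakest of the hybridisation controls, read 6.94 to 7.47 (log2) in naive replicates 3 and 4, 7.64 to 8.04 in MPTP PFC, 7.59 to 8.22 in naive replicates 1 and 2 and 6.77 to 7.50 in CPu, so that MPTP PFC overlapped naive replicates 1 and 2 alone in bioB and read higher than all other arrays. The 5′ minus 3′ signal of the actin control, lower where RNA is more degraded, was -0.83 to -0.62 in MPTP PFC, -0.92 to -0.72 in naive replicates 3 and 4 and -2.30 to -0.79 in naive replicates 1 and 2. The description of naive FVB/N CPu replicate 2 says MPTP-exposed, while its title, source and characteristics say naive, and it was taken as naive. Most regional markers followed the labels: all 6 striatal markers were lower in naive PFC (Drd2, a dopamine receptor, by -4.65 ± 0.075), and of 8 cortical markers 6 were higher (Neurod6 by 3.69 ± 0.219) and 1 lower (Bcl11b by -1.36 ± 0.107). Errors given with ± are standard errors of log2 differences from the limma fit.

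The start regions of 39 of the 45 genes were found in RefSeq's promoter table (build GRCm38.p6). A pyrimidine tract, taken as a C followed by at least 5 more C or T and starting within 20 bases of the annotated start, was present in 25 of 39 (64.1%), against 32.5% of 27025 promoters of all genes. The letters CCGGAAG, the core that ETS factors bind, occurred on either strand in 51.3% of the members' 300-base windows and in 9.1% of all windows. GGGCGG, the Sp1 core, occurred in 51.3% and 35.9%, and GATGGC, part of the YY1 motif, in 12.8% and 14.1%. TATAAA placed 15 to 45 bases upstream was in 0 of 39 and in 2.5% of all. Shown here are 60 bases before and 20 after the start, 5′ to 3′, for 7 genes that recur in the comparisons that follow: members with wide differences by region or MPTP, and a pair of stalk proteins. Rps4l and Rps20 had no entry. Capitals mark the tract, and the start is base 61. Rps6, Rpl27a, Rps26 and Rplp2 have a tract; Rpl37, Rplp0 and Rps19 have none in this window.
Rps6 (chr4:86857348-86857427, minus strand): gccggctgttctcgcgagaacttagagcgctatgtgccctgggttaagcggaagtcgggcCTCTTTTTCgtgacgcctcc
Rpl27a (chr7:109519135-109519214, plus strand): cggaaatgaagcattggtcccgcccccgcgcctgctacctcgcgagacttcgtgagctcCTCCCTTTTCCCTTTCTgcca
Rps26 (chr10:128626487-128626566, minus strand): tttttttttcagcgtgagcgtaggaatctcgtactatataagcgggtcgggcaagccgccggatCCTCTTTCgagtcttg
Rplp2 (chr7:141447591-141447670, plus strand): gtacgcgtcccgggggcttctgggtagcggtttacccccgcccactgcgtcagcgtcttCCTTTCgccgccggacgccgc
Rpl37 (chr15:5116553-5116632, plus strand): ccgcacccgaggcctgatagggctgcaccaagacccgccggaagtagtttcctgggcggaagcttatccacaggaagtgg
Rplp0 (chr5:115559407-115559486, plus strand): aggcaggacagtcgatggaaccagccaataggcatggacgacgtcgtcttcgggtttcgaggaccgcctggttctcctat
Rps19 (chr7:24884532-24884611, plus strand): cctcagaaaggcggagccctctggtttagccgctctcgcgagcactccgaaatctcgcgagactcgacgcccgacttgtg

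The 45 genes moved together by a small amount. In each array, every member's deviation from its own mean over the 23 arrays of the fit was taken, and the median over members is shown in the plot of member medians by array. This median lay between -0.09 and 0.06 in naive PFC, between -0.34 and -0.10 in MPTP PFC, between -0.02 and 0.17 in naive CPu and between 0.06 and 0.25 in MPTP CPu. All 6 MPTP PFC arrays lay below all 6 naive PFC arrays, and the CPu arms overlapped. The lowest array was TgS MPTP PFC replicate 2 at -0.34, and the highest was the single TgR MPTP CPu array at 0.25. The median varied between replicates of a group with an SD of 0.05. Naive PFC replicates 1 and 2 lay between -0.05 and 0.15, above the MPTP PFC arrays as well. Large- and small-subunit genes gave alike ranges, -0.27 to -0.07 and -0.38 to -0.11 in MPTP PFC.

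**Figure D1:**
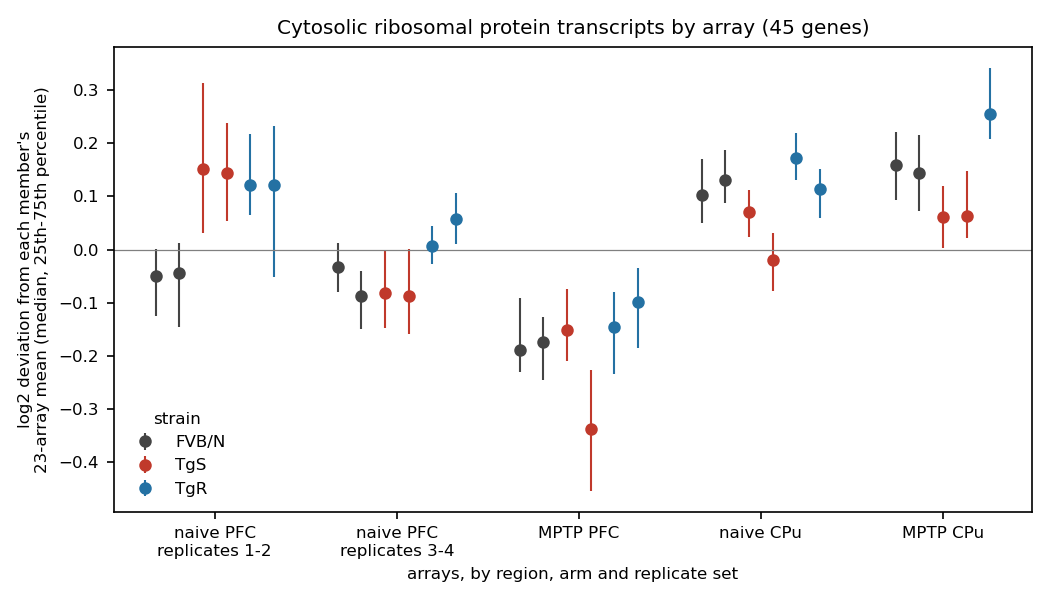
Each point is 1 array: the median over 45 ribosomal protein genes of the log2 deviation from the gene's 23-array mean (y axis), with the 25th to 75th percentile of the genes as a bar, by region, arm and replicate set (x axis) and coloured by strain. The MPTP PFC arrays lie between -0.34 and -0.10, below every other array shown.

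Single genes differed in how much they varied. Over the 23 arrays the SD of the log2 signal was smallest for Rpl4, a protein that reaches into the exit tunnel of the large subunit, at 0.076, followed by Rps2, Rpl19 and Rps7 at 0.088 to 0.094. It was largest for Rps4l, an autosomal relative of the X-linked Rps4x, at 0.573, then Rps6 at 0.389, Rpl37 at 0.305 and Rps19 at 0.297. Rpl4 read 12.92 to 13.04 in naive PFC, 12.80 to 12.91 in MPTP PFC, 12.90 to 13.07 in naive CPu and 12.96 to 13.09 in MPTP CPu. These PFC arms did not overlap, and the whole range over 23 arrays was 0.29. Naive TgR PFC replicate 2, at 12.82, lay within the MPTP range.

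Representing probe sets had mean signals of 4.54 (Rpl39l) to 13.49 (Rps29), and 32 of 45 had a mean of 11 or more. These means depend on the probes and give no order of mRNA amounts. Over the 23 arrays the correlation of members with each other had a median r of 0.79 (990 pairs), and 0.86 among the 32 genes of mean 11 or more (496 pairs). Within the 12 PFC arrays those medians were 0.69 and 0.79, and within the 11 CPu arrays 0.63 and 0.74; the arrays' overall scaling is shared by all genes. Most like the median of the bright genes was Rps19 (r = 0.99 over 23 arrays), needed to mature the small subunit, and least like it were Rpl22 (-0.58), Rpl27a (-0.13) and Rpl39l (0.25). Names of Affymetrix probe sets end in x or s where probes can also match other transcripts: 12 and 2 of the 45 do so. Ribosomal protein genes have many processed pseudogenes, so the part of a signal that comes from near copies was not tested.

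In naive mice most ribosomal protein mRNAs read lower in PFC than in CPu. Averaged over strains, 26 of 45 members were lower and 2 higher at an adjusted p under 0.05, and 41 of 45 differences were negative (limma, 6 against 6 arrays). The background was 29.4% of all probe sets lower and 23.8% higher. The members' median difference was -0.14 against -0.01 over all probe sets. Both subunits took part, with 12 of 24 large-subunit and 14 of 21 small-subunit genes lower. Most differences were small, and 7 members had no overlap between the naive regions (Rpl27a, Rpl6, Rps25, Rps26, Rps29, Rps4l and Rps6), 15.6% of the members against 12.8% of all probe sets; 0 members lay wholly above (background 9.93%).

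The regional difference was widest for Rps4l. It read 6.73 and 6.67 in naive FVB/N PFC, 6.09 and 6.10 in TgS and 6.53 and 6.80 in TgR, against 7.57 and 7.57, 7.54 and 7.46, and 7.57 and 7.87 in CPu of the same strains. No PFC array reached the lowest CPu array. The difference was -1.11 ± 0.057 (2.16-fold lower in PFC, limma adjusted p = 9.96e-11). Rps6, the small-subunit protein that S6 kinases phosphorylate, ranged from 7.33 to 7.65 in PFC (median 7.38) and from 7.91 to 8.21 in CPu (median 8.11). These arrays did not overlap, and the difference was -0.65 ± 0.065 (adjusted p = 3.33e-07). Naive PFC replicates 1 and 2 read 7.29 to 8.34 for Rps6 (median 7.98) and overlapped CPu. Another probe set with the Rps6 symbol alone (mean 4.90) was higher in PFC by 0.19 ± 0.066 (adjusted p = 0.0253), and the brightest one with shared annotation (mean 13.35) was lower by -0.18 ± 0.033. Next came Rpl27a at -0.36 ± 0.056 and Rpl14 at -0.33 ± 0.063, both of the large subunit.

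Smaller regional falls were called for Rplp2 but not Rplp0 of the stalk, and for several genes of the small subunit. Rplp2, an acidic protein of the stalk that recruits elongation factors, was lower by -0.23 ± 0.053 (adjusted p = 0.00176), whereas Rplp0, on which the stalk is built, differed by -0.04 ± 0.040 (adjusted p = 0.418). Rpsa, a small-subunit protein also known as the laminin receptor, was lower by -0.27 ± 0.051, Rps19 by -0.27 ± 0.060, Rps27 by -0.20 ± 0.050 and Rps4x by -0.16 ± 0.042. Rpl11, which with Rpl5 and 5S RNA binds Mdm2, was lower by -0.14 ± 0.043. Rpl39, of the exit tunnel, and Rps27l, a relative of Rps27 induced by p53, differed by -0.08 ± 0.047 and -0.09 ± 0.055 and were not called. Higher in PFC were Rpl22, an RNA-binding protein of the large subunit, by 0.22 ± 0.044 (adjusted p = 0.000578), and Rpl39l, a relative of Rpl39, by 0.15 ± 0.052 (adjusted p = 0.0253). The mean of Rps4x over all its probe sets went the other way, at 0.15. Of the 22 members with several probe sets of their own, 12 had the same sign in all of them for region, and Rpl35, Rps4x and Rps6 had probe sets called in both directions.

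The regional result depended on which naive PFC arrays were used. With all 29 arrays and a term for the spelling set, the PFC side rests on replicates 1 and 2. In that fit 10 members were lower and 5 higher, 9 of the 10 being among the 26. Of all probe sets it called 60.1% in either direction, a larger share than of the members. Rpl27a (0.26), Rpl14 (0.30) and Rplp2 (0.09) turned to positive values. Rps6 was at -0.21 ± 0.109 (adjusted p = 0.107), Rps4l at -0.94 ± 0.146 (adjusted p = 1.84e-05), and of the 2 rises Rpl22 was called and Rpl39l was not (0.09 ± 0.053, adjusted p = 0.172). Markers of other cells moved with the same comparison. All 7 oligodendrocyte markers were lower in naive PFC (median -1.47), as were all 8 choroid plexus markers (median -1.69), and of 10 neuronal markers 7 were higher and 2 lower (median 0.28). The mean oligodendrocyte marker signal was 9.93 to 10.38 in naive PFC and 11.30 to 11.72 in naive CPu. The actin 5′ minus 3′ signal was -0.92 to -0.72 in naive PFC and -1.41 to -0.67 in naive CPu, lowest in FVB/N CPu at -1.41 and -1.26. The part of these shifts in the ribosomal difference was not tested.

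**Figure D2:**
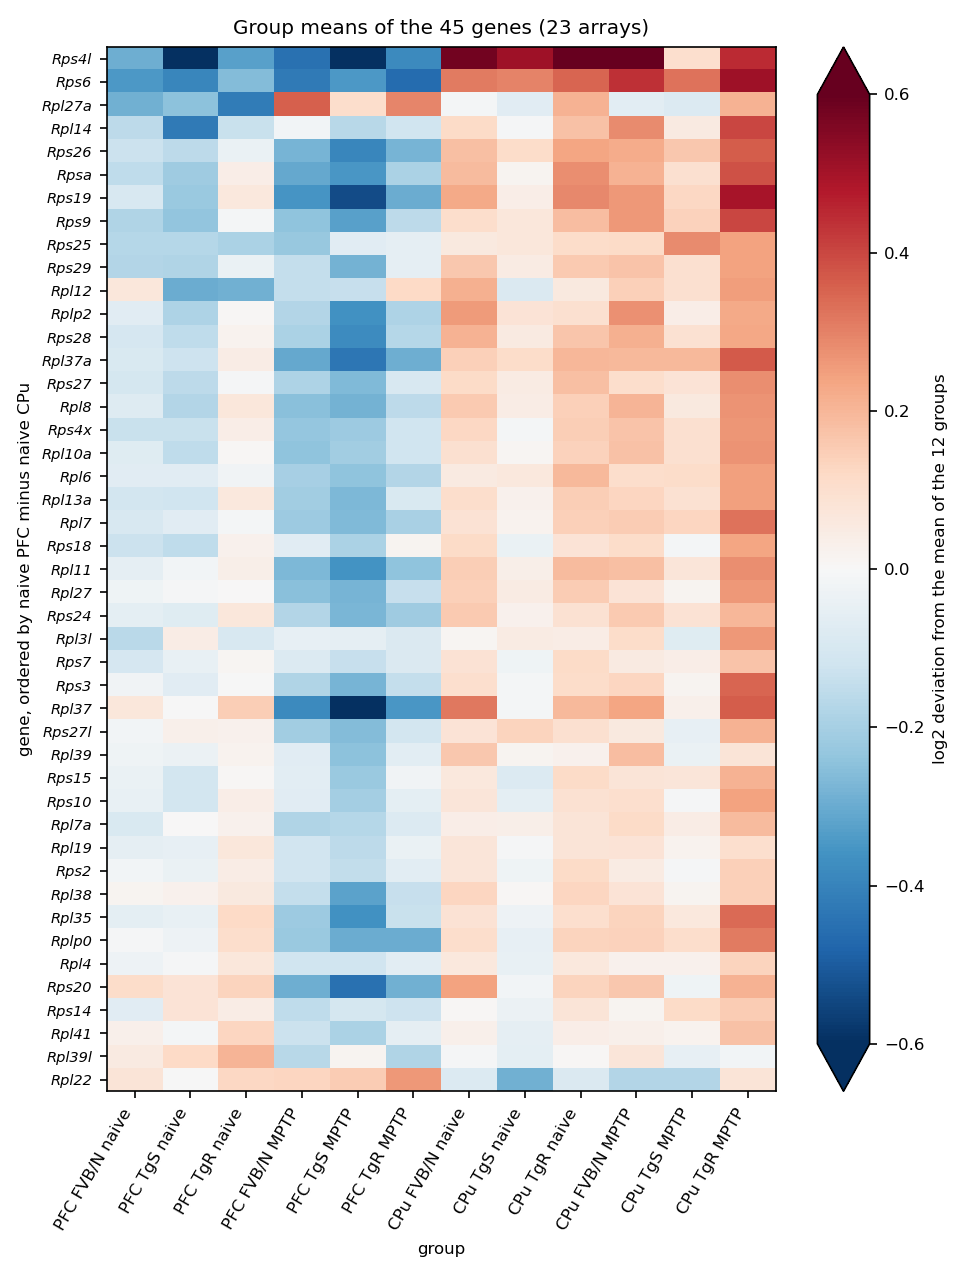
Heat map of the 45 genes (y axis, ordered by the naive PFC minus naive CPu difference) in the 12 groups of 23 arrays (x axis), with colour for the log2 deviation of a group's mean from the mean of the 12 groups. Most genes are lowest in the MPTP PFC groups, Rps4l and Rps6 are low in all 6 PFC groups, and Rpl27a is low in naive PFC.

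Few members were called between strains in naive mice, where each test compared 2 with 2 arrays. In naive PFC, 1 member was lower in TgS than in FVB/N and 0 were higher (background 2.68% lower, 1.05% higher), and the same 1 was lower in TgS than in TgR (background 3.14% lower, 1.65% higher). This was Rps4l, by -0.60 ± 0.098 (adjusted p = 0.00196) and by -0.57 ± 0.098 (adjusted p = 0.00296). The TgS arrays at 6.09 and 6.10 lay below the 4 arrays of the other strains, which reached down to 6.53. In naive replicates 1 and 2 the order was another: FVB/N arrays read 5.92 and 6.22 for Rps4l, TgS arrays 6.48 and 6.87, and TgR arrays 7.28 and 7.14, so that FVB/N was lowest there. Without TgR replicate 4, no member was called between TgS and TgR. Of the 45 differences, 40 were negative for TgS against TgR (median -0.125) and 29 for TgS against FVB/N (median -0.025).

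TgR against FVB/N in naive PFC gave 0 calls among the members by limma (background 0.0486%). At an unadjusted p under 0.05 there were 5 (11.1% of the members, 7.82% of all probe sets), and 41 of 45 differences were positive (median 0.09). In naive CPu no member was called by limma between TgS and FVB/N (median -0.11, background 9.25%), TgR and FVB/N (median 0.03, background 0.407%) or TgS and TgR (median -0.13, background 2.93%). At an unadjusted p under 0.05 there were 5, 2 and 11 members, or 11.1%, 4.44% and 24.4% of them, against 23.8%, 10.2% and 15.7% of all probe sets. Differences were negative in 41, 12 and 43 of the 45 members, in the same order. The smallest p values between TgS and FVB/N in CPu were those of Rps20 (-0.26 ± 0.086, adjusted p = 0.0691), Rpl37 (-0.33 ± 0.115) and Rpl22 (-0.20 ± 0.077). Without FVB/N CPu replicate 2, the array with the contradictory description, 1 member was called in that comparison.

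After MPTP, ribosomal protein mRNAs read lower in the PFC. Averaged over strains, 28 of 45 members fell and 2 rose against naive replicates 3 and 4 (limma, 6 against 6 arrays), against a background of 22.0% of all probe sets lower and 28.5% higher. The members' median difference was -0.14, while that of all probe sets was 0.02. In 16 members every MPTP array lay below every naive array, 35.6% of the members against 8.42% of all probe sets. The fall was seen in 17 of 24 large-subunit and 11 of 21 small-subunit genes. Of the 32 genes with a mean signal of 11 or more, 25 fell and 0 rose; of the 13 under 11, 3 fell and 2 rose.

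The widest fall was that of Rpl37, a small zinc-binding protein of the large subunit. It read 10.29 and 10.14 in naive FVB/N PFC, 10.15 and 10.14 in TgS and 10.28 and 10.31 in TgR, and after MPTP 9.76 and 9.77, 9.77 and 9.28, and 9.74 and 9.85. Every MPTP array was below every naive array, and TgS MPTP replicate 2 was lowest. The difference was -0.52 ± 0.066 (1.44-fold lower, adjusted p = 8.97e-06). Naive replicates 1 and 2 ranged from 10.10 to 10.46 and were likewise above all MPTP arrays.

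Rps20, a protein of the small subunit's head, ranged from 11.81 to 12.08 in naive PFC (median 11.94) and from 11.37 to 11.60 after MPTP (median 11.48). The arms did not overlap, and it fell by 0.45 ± 0.049 on the log2 scale (adjusted p = 2.22e-06). Rps19 ranged from 11.30 to 11.69 in naive PFC (median 11.44) and from 10.83 to 11.29 after MPTP (median 11.18). Here the arms touched without overlap, 11.29 against 11.30, and the difference was -0.31 ± 0.060 (adjusted p = 0.000457). Rplp0 ranged from 11.63 to 11.84 in naive PFC (median 11.70) and from 11.34 to 11.48 after MPTP (median 11.42). All MPTP arrays were lower, by -0.29 ± 0.040 (1.23-fold, adjusted p = 1.73e-05), though 2 naive arrays of replicates 1 and 2, at 11.45 and 11.46, lay within the MPTP range.

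Other members with known roles fell by less. Rpl11 fell by 0.28 ± 0.043, Rpl37a by 0.29 ± 0.049, Rps27l by 0.21 ± 0.055, Rpsa by 0.17 ± 0.051, Rplp2 by 0.16 ± 0.053 and Rps4x by 0.12 ± 0.042 on the log2 scale, all called. Rps26, which lines the mRNA exit, ranged from 11.99 to 12.14 in naive PFC and from 11.60 to 11.93 after MPTP, a fall of 0.21 ± 0.049 with no overlap. Naive FVB/N PFC replicate 2, at 11.88, lay within the MPTP range of Rps26. Not called were Rps6 (-0.08 ± 0.065, adjusted p = 0.334), Rps27 (-0.09 ± 0.050) and Rpl39 (-0.11 ± 0.047, adjusted p = 0.0536). Rps4l, the gene with the widest regional difference, differed by -0.01 ± 0.057 (adjusted p = 0.932). Falls were called in 14 of the 25 members with a pyrimidine tract (median difference -0.11) and in 10 of the 14 without (median -0.17).

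**Figure D3:**
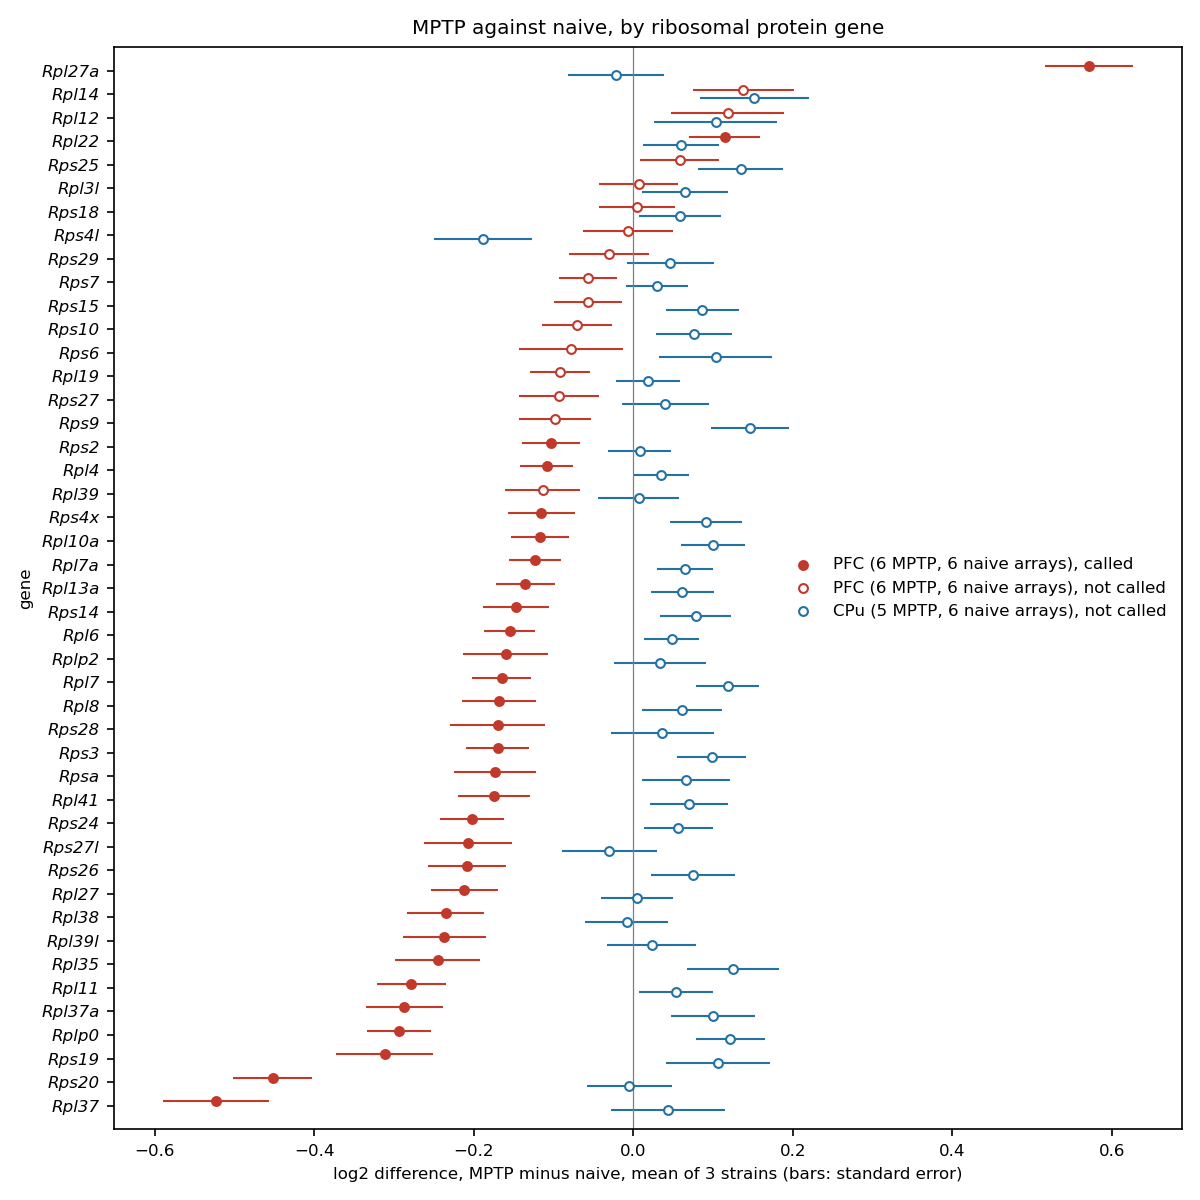
Log2 difference between MPTP and naive arrays, averaged over 3 strains (x axis, bars are standard errors), for each of the 45 genes (y axis) in PFC (red) and CPu (blue), filled where the limma adjusted p is under 0.05. In PFC 28 genes lie below 0 and 2 above with a call; in CPu no gene is called and 40 of 45 values are positive.

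The 2 members that rose were Rpl27a and Rpl22, and neither rise held against the other naive arrays. Rpl27a read 7.88 to 8.13 in naive PFC and 8.28 to 8.71 after MPTP, with no overlap and a difference of 0.57 ± 0.056 (1.49-fold higher, adjusted p = 7.45e-07). It was the 1 member with all MPTP arrays above all naive arrays (2.22% of the members, background 12.5%). In naive replicates 1 and 2 it ranged from 7.80 in TgS to 9.51 in TgR, around the MPTP values, and with all 29 arrays and the set term its difference was -0.05. Rpl22 rose by 0.12 ± 0.044 (adjusted p = 0.0404) and gave -0.12 in that fit.

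Other probe sets of the same genes did not always move alike. For Rpl27a a brighter probe set (mean 12.13), whose annotation names other genes too, differed by -0.01 ± 0.044 in PFC after MPTP. Probe sets with shared annotation gave -0.36 ± 0.037 and -0.38 ± 0.039 for Rpl12, at the base of the stalk, where the representing one (mean 8.03) gave 0.12 ± 0.071. For Rpl14 such probe sets gave -0.42 ± 0.058 to -0.21 ± 0.049, and the representing one (mean 6.42) gave 0.14 ± 0.063. For Rps25 the values were -0.30 ± 0.053 and 0.06 ± 0.049. Of the 22 members with more than 1 probe set of their own, 13 had the same sign in all of them, and Rpl35, Rps24 and Rps9 had probe sets called in both directions. Rps9 shows how far apart these can be: 0.70 ± 0.087 at a mean signal of 7.11, -0.10 ± 0.045 at 11.94 and -0.35 ± 0.042 at 5.55.

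The fall was also seen when every probe set was counted. Of all 96 probe sets with a member's symbol alone, 61 were lower and 5 higher in PFC after MPTP. Of 102 probe sets, for 41 genes, that name a ribosomal protein gene together with others, 68 were lower and 5 higher, with a median of -0.19. These were examined after the members' values were seen.

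Against naive replicates 1 and 2 the fall remained. In 15 members all MPTP arrays lay below all of those arrays (33.3% of the members, background 11.2%), and 1, Rpl12, lay above (background 11.9%). With all 29 arrays and the set term, 40 members were lower and 2 higher, and all 28 of the falls above were among the 40. That fit called 60.9% of all probe sets in either direction. Both fits use the same 6 MPTP arrays. Centring each array on its median, which differed by 0.08 between the PFC arms, gave 36 lower and 1 higher, with 56% of all probe sets called. Without TgS MPTP replicate 2, 26 members were called in place of 30.

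**Figure D4:**
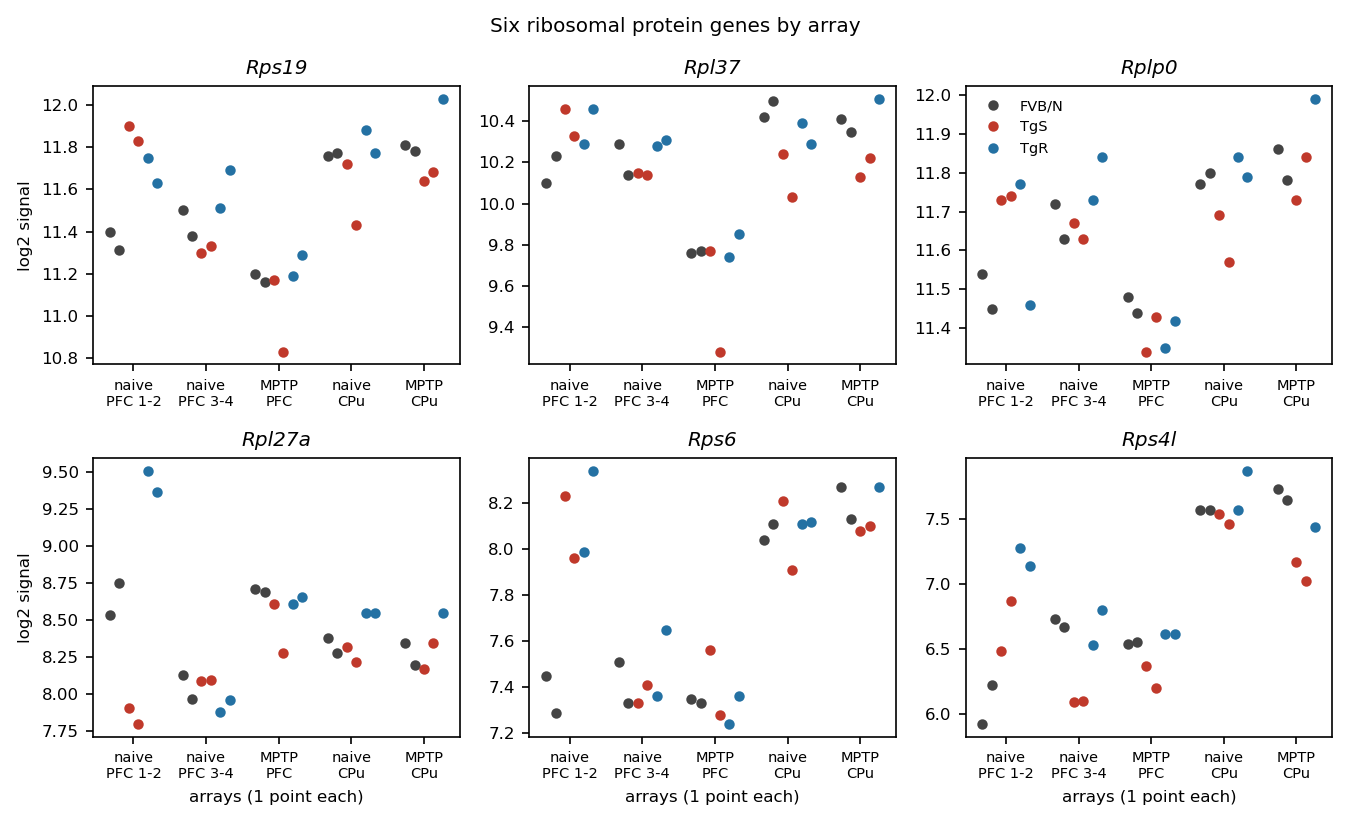
Log2 signal (y axes, not starting at 0) of Rps19, Rpl37, Rplp0, Rpl27a, Rps6 and Rps4l in each of the 29 arrays, 1 point an array, by region, arm and replicate set (x axes), coloured by strain. Rpl37 in MPTP PFC (9.28 to 9.85) is below every other array; Rpl27a spans 7.80 to 9.51 in naive PFC replicates 1 and 2; Rps4l and Rps6 are lower in naive PFC replicates 3 and 4 than in CPu.

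Within strains the members' median was negative in PFC after MPTP, and the calls varied with single arrays. FVB/N had 4 members lower and 1 higher (background 7.50% lower, 11.4% higher). The FVB/N count is near its background. TgS had 16 lower and 1 higher (background 15.8% and 21.4%). TgR had 9 lower and 2 higher (background 8.66% and 13.9%). The median differences were -0.11, -0.14 and -0.15. Of the 45 genes, 34 had a negative difference in all 3 strains and 3 a positive one (Rpl14, Rpl22 and Rpl27a). The shares of all probe sets with the same sign, or with a fall called, in all 3 strains were not counted. Members vary together from array to array, so these genes are not independent of each other. Rpl37, Rps20 and Rplp0 were called lower in every strain: Rpl37 by -0.45, -0.62 and -0.50, Rps20 by -0.41, -0.53 and -0.42, and Rplp0 by -0.21, -0.27 and -0.40 in FVB/N, TgS and TgR.

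Beyond those 3 genes other members were called within strains. In TgS Rpl38, known for its part in translating Hox mRNAs, fell by 0.34 ± 0.083 and Rpl11 by 0.34 ± 0.075 on the log2 scale. The TgS MPTP arrays read 12.79 and 12.46 for Rpl38. Both genes also read lower after MPTP in the other strains. Group means of Rpl38 went from 12.96 to 12.80 in FVB/N and from 13.005 to 12.805 in TgR. Those of Rpl11 went from 11.695 to 11.48 and from 11.785 to 11.51. In TgR Rpl39l, the member with the lowest mean signal (4.54), differed by -0.39 ± 0.090, and Rpl12 rose by 0.41 ± 0.123. The Rpl12 probe set had a mean of 8.03 and differed by 0.95 between the naive replicate sets. Averaged over strains, probe sets of Rpl12 with shared annotation gave negative differences, as described above. The difference between TgS and FVB/N in the MPTP effect was itself tested, and no member passed in PFC by limma (median -0.06, background 0.645%). At an unadjusted p under 0.05 there were 3, or 6.67% of the members against 15.8% of all probe sets. The effect in TgR was not tested against the other strains. With 1 array left out the count of called members ranged from 1 to 3 for FVB/N, from 6 to 20 for TgS and from 5 to 7 for TgR. The 6 calls in TgS came without MPTP replicate 2 or without naive replicate 3, and naive replicate 4 left 8. In FVB/N, leaving out MPTP replicate 1 or naive replicate 3 left 1 call, MPTP replicate 2 left 2 and naive replicate 4 left 3. In TgR, MPTP replicate 1 left 5, naive replicate 4 left 6 and each of the others left 7. Centring on the array medians, which in TgS differed by 0.11 between the arms, gave 13 lower and 1 higher for FVB/N, 29 and 0 for TgS, and 25 and 1 for TgR. After centring, the shares of all probe sets called were 20.7% in FVB/N, 42.4% in TgS and 24.9% in TgR.

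In the CPu, where the axons of the dopamine neurons end, no member was called after MPTP. By limma 0 of 45 were called, against 4.54% of all probe sets, and 9 had an unadjusted p under 0.05 (20.0% of the members, 19.5% of all probe sets). Of the 45 differences 40 were positive, with a median of 0.06. No member had arms without overlap (background 0.548% lower and 1.08% higher). Rplp0 ranged from 11.57 to 11.84 in naive CPu and from 11.73 to 11.99 after MPTP, a difference of 0.12 ± 0.043 (adjusted p = 0.124). Rpl37 ranged from 10.03 to 10.50 and from 10.13 to 10.51, and differed by 0.04 ± 0.072. The smallest p values were those of Rps4l (-0.19 ± 0.061, adjusted p = 0.0957), Rps9 (0.15 ± 0.049) and Rpl7 (0.12 ± 0.040). Without TgR naive replicate 1, 1 member was called lower.

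Within the strains 1 gene was called in CPu. In TgS mice Rps4l read 7.54 and 7.46 in naive arrays and 7.17 and 7.02 after MPTP, with no overlap, and the limma adjusted p was 0.0293 (0 higher and 1 lower of 45, background 1.73% higher and 2.05% lower). That call was lost without naive replicate 1, without MPTP replicate 2 and with the replicate number as a block. In FVB/N no member was called by limma (background 0.676%), nor in TgR (background 0.495%), where a single MPTP array was assumed to vary like the other groups. At an unadjusted p under 0.05 there were 0 and 5 members, against 10.8% and 8.68% of all probe sets; 5 are 11.1% of the members. The MPTP effect in CPu did not pass a test of difference between TgS and FVB/N for any member by limma (background 1.42%), and 1 had an unadjusted p under 0.05 (2.22% of the members, 10.7% of all probe sets). Rps4l came nearest, at -0.53 ± 0.139 (adjusted p = 0.0829).

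The MPTP effect differed between the regions. In the test of the difference itself, 25 of 45 members were lower in PFC than in CPu and 1 was higher, against 14% and 18.5% of all probe sets. The members' median was -0.20. The lowest were Rpl37 (-0.57 ± 0.098, adjusted p = 0.000571), Rps20 (-0.45 ± 0.073, adjusted p = 0.00038), Rps19 (-0.42 ± 0.089) and Rplp0 (-0.42 ± 0.059, adjusted p = 0.000127), and the highest was Rpl27a at 0.59 ± 0.082. After MPTP, 34 members had every PFC array below every CPu array, 75.6% of the members against 15.3% of all probe sets, and 1, Rpl22, had every PFC array above (background 14.7%). With all 29 arrays and the set term, 24 of the 25 were again called lower and Rpl27a was at -0.03. That fit called 43.3% of all probe sets in either direction.

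Cell markers also moved with MPTP. In PFC 8 of 10 endothelial and mural markers rose (median 0.44) and 0 fell, and their mean signal was 8.69 to 9.04 in MPTP arrays, 7.98 to 8.85 in naive replicates 3 and 4 and 8.86 to 8.99 in naive replicates 1 and 2. The strains were unlike: in FVB/N 1 of these markers rose and 1 fell (median -0.105). In TgS 7 rose and 0 fell (median 0.83), and in TgR 7 rose and 0 fell (median 0.62). Of the meningeal and fibroblast markers 5 of 10 rose and 1 fell, of the blood cell markers 3 of 6 rose and 1 fell, and of the microglial markers 4 of 9 rose and 2 fell. The mean meningeal signal was 7.40 to 7.83 in MPTP PFC, 7.08 to 7.54 in naive replicates 3 and 4 and 7.75 to 8.20 in naive replicates 1 and 2. By strain, 1 meningeal marker rose in FVB/N PFC (median 0.045), 7 in TgS (median 0.64) and 4 in TgR (median 0.38), and 0 fell. In CPu 7 of 9 microglial markers rose (median 0.36) and 8 of 10 meningeal markers fell (median -0.49), with 0 ribosomal protein genes called. By strain, 0 of the 10 meningeal markers were called in FVB/N CPu (median -0.04), and 9 fell in TgS CPu (median -0.92). With the single MPTP array of TgR CPu their median was -0.46. Of 10 astrocyte markers 3 rose and 5 fell in PFC (median -0.11), and 2 rose and 1 fell in CPu. The filament gene Gfap rose by 1.03 ± 0.102 and 0.55 ± 0.111, and the water channel gene Aqp4 was lower by -0.31 ± 0.058 and -0.41 ± 0.063, in PFC and CPu. The part of these shifts, and of bioB, in the fall of the ribosomal protein mRNAs was not tested.

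Falls in PFC were also called in genes of other large protein assemblies, against the background of 22.0% of probe sets lower and 28.5% higher. Of 74 mitochondrial ribosomal protein genes 40 fell and 5 rose after MPTP (median -0.11), of 39 complex I Nduf genes of the respiratory chain 27 fell and 0 rose (median -0.15), and of 46 proteasome subunits 24 fell and 5 rose (median -0.13). In the naive regional comparison, where 29.4% of all probe sets were lower and 23.8% higher, mitochondrial ribosomal proteins had 10 genes lower and 13 higher in PFC (median -0.01), Nduf genes 9 and 1, and proteasome subunits 6 and 13. In the difference of the MPTP effect between regions (background 14% lower and 18.5% higher), 24 mitochondrial ribosomal genes were lower and 1 higher, Nduf genes 11 and 0, and proteasome subunits 10 and 4. These families were not compared with the cytosolic ribosomal proteins by a test.

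**Figure D5:**
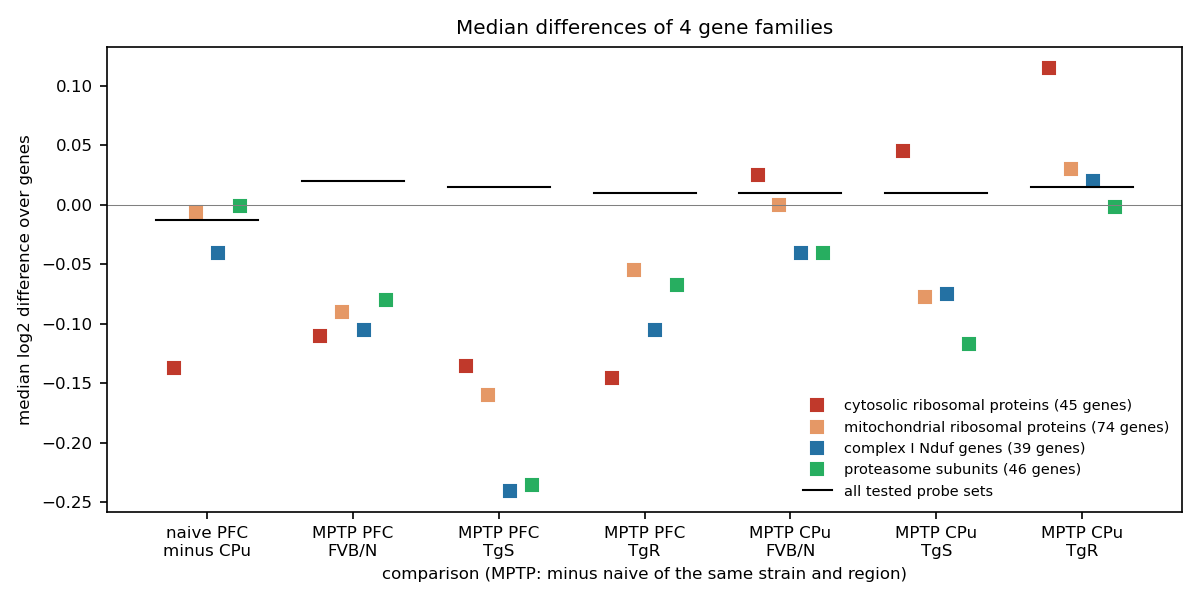
Median log2 difference over the genes of 4 families (squares) and over all 22626 probe sets (lines) in 7 comparisons (x axis); the y axis is the median log2 difference. All 4 families lie below 0 in MPTP PFC of each strain, and the cytosolic ribosomal proteins are at -0.14 in the naive regional comparison.

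Genes that work with the ribosome are set against the same background of 22.0% lower and 28.5% higher in PFC after MPTP. Of 5 ribosomal proteins outside the naming rule 2 fell and 0 rose. Among them Rpl22l1, the paralogue of Rpl22, fell by 0.40 ± 0.039 on the log2 scale (limma adjusted p = 7e-07). The rise of Rpl22 itself did not hold with all 29 arrays and the set term. Of 30 initiation factors 10 fell and 3 rose, with Eif2s2, the beta subunit of eIF2, at -0.28 ± 0.037 and Eif1b at 0.29 ± 0.040. Of 13 elongation factors and other genes with TOP mRNAs 4 fell and 6 rose: Npm1 (-0.36 ± 0.038) and Eef1b2 (-0.33 ± 0.035) fell, and Eef1a2, the elongation factor of mature neurons, rose by 0.34 ± 0.035. In the naive regional comparison 11 of these 13 were lower in PFC and 0 higher, Gas5, a host gene of small nucleolar RNAs, by -0.41 ± 0.062.

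Of 46 ribosome biogenesis genes 11 fell and 13 rose in PFC after MPTP, shares close to the background of 22.0% and 28.5%. Of 13 RNA polymerase I genes 3 fell and 6 rose, including Ubtf, which opens ribosomal DNA, by 0.20 ± 0.037. Of 16 genes of mTOR and MYC control 8 rose and 1 fell. Among them Eif4ebp2, a repressor of cap-dependent translation, rose by 0.83 ± 0.061, Tsc2, which restrains mTOR, by 0.56 ± 0.042, and Rps6kb2, an S6 kinase, by 0.85 ± 0.089. In CPu 0 initiation, elongation or outside-rule genes were called by limma (5, 2 and 2 at an unadjusted p under 0.05), and 1 biogenesis gene, Nop16, fell. There 1 RNA polymerase I gene and 1 gene of mTOR and MYC control rose, and 0 of either list fell. The 18S ribosomal RNA control probe set at the 3′ end read 6.38 to 6.67 in MPTP PFC. It read 6.59 to 6.82 in the naive PFC arrays of the fit, a range that overlaps that of MPTP PFC. Naive PFC replicates 1 and 2 read 6.85 to 7.56, above every MPTP PFC array, so the overlap depends on the naive set. Whether this control follows the amount of ribosomal RNA was not tested.

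The naive PFC replicate sets also differed in these genes. Between replicates 3 and 4 and replicates 1 and 2, 16 members were lower and 2 higher (background 34.7% lower and 19% higher), with a median of -0.10 against -0.07 over all probe sets. The share lower is close to the background. Rpl12 was higher by 0.95 ± 0.100 and Rps25, needed for some cap-independent initiation, by 0.24 ± 0.074, while Rpl14 (-0.63 ± 0.092), Rpl27a (-0.62 ± 0.173), Rps6 and Rplp2 (-0.32 ± 0.067) were lower. Of the other markers, 9 of 10 endothelial and 8 of 10 meningeal ones were lower in replicates 3 and 4 and 0 were higher.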

How the data were processed

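Total RNA of 29 samples was measured on Affymetrix arrays. Per the submitters' processing notes, the authors' tools were RMA, Affymetrix Expression Console and Affymetrix Power Tools, with no version in the sources used here. The deposited values are log2 signals per probe set and were used as deposited, with no filter on low signal. The 64 control probe sets of 22690 were left out of tests. No detection calls were used, and the number of arrays limits the precision. A linear model that gave each of 12 groups its own mean was fitted (limma 3.58.1 in R 4.3.3) to 22626 probe sets in 23 arrays (11 residual degrees of freedom), without naive PFC replicates 1 and 2; the comparison of those replicates used all 29 arrays. P was two-sided, adjusted by Benjamini-Hochberg over all probe sets in each of 19 comparisons, and a call is an adjusted p under 0.05. The script was tested on simulated data. Named genes were 15 listed symbols, plus the 4 largest called rises and falls in a comparison (the 3 smallest p where fewer than 3 were called), the 4 smallest and largest spreads, and up to 3 genes of other lists; Rps9, Rps25, Rps26, Rpl12, Rpl37a, Bcl11b and the other probe sets were named after their values were seen. The members and lists were chosen with earlier results of these data known. Promoter windows come from RefSeq.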

Additional observations from a re-analysis of the deposited data

Results flagged for a closer look

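Among 60 checks of 20 quantities (19 genes and the member median) in the 4-array naive PFC groups, 2 arrays lay far from the other 3; about 1 in 20 such checks does so by chance. Rpl37 was 10.46 in naive TgR PFC replicate 2 and 10.28 to 10.31 in the other arrays of the group. Rps20 was 12.08 in naive FVB/N PFC replicate 3, against 11.77 to 11.81 in the other arrays, and that array is one of the controls for MPTP. The MPTP difference was unequal between PFC and CPu for 26 members by the interaction test. Of these, Rpl27a (0.59), Rpl37 (-0.57), Rps20 (-0.45), Rps19 (-0.42) and Rplp0 (-0.42) had the widest gaps.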

How the results depend on the processing

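Which naive PFC arrays stand for the controls mattered most. With all 29 arrays, members called with and without a set term numbered 15 and 15 for the naive regions, 3 and 1 for TgS against FVB/N in naive PFC (with most calls then higher, and a median of 0.09 in both), 6 and 0 for TgS against TgR, 8 and 1 for MPTP in FVB/N PFC, and 0 and 0 for MPTP in TgS CPu; with the set term they were 2 for TgR against FVB/N in naive PFC, 38 for MPTP in TgS PFC and 32 in TgR PFC. With the set term signs turned for Rpl27a (0.263 for region, -0.053 for MPTP in PFC, -0.357 in TgR, where it was -0.045 without the term, and -0.032 for the difference between regions), Rpl14 (0.298 for region), Rplp2 (0.093 for region), Rpl22 (-0.12 for MPTP in PFC, -0.002 without the term, and -0.18 for the difference between regions), Rps27l (-0.327, TgS against TgR) and Rps6 (-0.535, MPTP in TgS PFC). With the set term, 60.1% of all probe sets were called for the naive regions. For MPTP in PFC these shares were 25.5% in FVB/N, 40.6% in TgS and 43.7% in TgR. In naive PFC they were 10.9% for TgS against FVB/N, 18.6% for TgS against TgR and 2.26% for TgR against FVB/N. For MPTP in TgS CPu the share was 1.41%. Without the term 40.1% were called for the naive regions. In naive PFC 1.7% were then called for TgS against FVB/N and 7.53% for TgS against TgR. For MPTP without the term, 2.15% were called in FVB/N PFC and 0.442% in TgS CPu. Averaging a gene's probe sets turned Rps4x to 0.15 for region and gave 2 calls for TgS against FVB/N in naive PFC and 20 for MPTP in TgR PFC. Of everything tested in that setting, 4.59% and 24.3% were called. Trended and robust variance gave 3 calls for TgS against TgR in naive PFC, 1 for TgS against FVB/N in CPu, 9 and 20 for MPTP in FVB/N and TgR PFC and 1 for MPTP in CPu. Of all probe sets 5.23%, 9.5%, 19.5%, 23.1% and 4.97% were called, in that order. Centring arrays gave 1 for TgS against FVB/N in CPu and 14, 29 and 26 for MPTP in FVB/N, TgS and TgR PFC, with 9.69%, 20.7%, 42.4% and 24.9% of all probe sets called. Fitting each region alone gave 1 for TgS against FVB/N in CPu, 3 for MPTP in FVB/N PFC and 0 in TgS CPu. The shares of all probe sets were 7.77%, 17.2% and 1.84%. Comparisons across regions could not be fitted so. Quantile normalization and leaving out the dimmest probe sets moved no count by more than 1.5 times.

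Deviations of same-numbered arrays from their group means correlated at -0.36 to 0.15. With 2 arrays in a group the deviations mirror each other, so the sign depends on the numbering. These values cannot show whether same-numbered arrays share more than a number. With the replicate number as a block, 3 members were called for MPTP in FVB/N PFC and 0 in TgS CPu, and no other count moved by more than 1.5 times (27 for MPTP in PFC, 28 for the naive regions). The shares of all probe sets were 15.4%, 2.32%, 48.1% and 50.8%, in that order.

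Leaving out each array in turn gave 24 to 28 calls for the naive regions, 26 to 35 for MPTP in PFC, 25 to 30 for the difference between regions and 13 to 23 between the naive replicate sets. It gave 1 to 3 for MPTP in FVB/N PFC, 6 to 20 in TgS, 5 to 7 in TgR, 0 to 1 in CPu and in TgS CPu, 1 to 2 for TgS against FVB/N in PFC, and 0 to 1 for TgS against TgR in PFC and TgS against FVB/N in CPu. For fits with an array left out, here and above, the shares of all probe sets called are not given. Members' medians that turned sign ranged from -0.01 (without naive TgS replicate 2) to 0.09 for MPTP in TgS CPu, from -0.02 (without the same array) to 0.075 for its difference from FVB/N, and from -0.125 to 0.05 (without TgS MPTP replicate 2) for that difference in PFC. MPTP in TgR CPu could not be fitted without its single array. The causes were not tested. No detection calls were used, so the signal over background of the dim probe sets is unknown.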
